A study of Mus musculus with 4 samples.

Results

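A set of 9 genes of microglia and of complement C1q was followed in the mouse hippocampus: Cx3cr1, P2ry12, Tmem119, Csf1r, Trem2, Aif1, C1qa, C1qb and C1qc. They were taken by symbol from the deposited gene table, and all 9 of 9 were found among its 15713 genes. The table covers 4 RNA sequencing libraries from the hippocampus of C57BL/6 mice aged 11 to 12 weeks. In the control group (Ctr, n = 2) the mice were untreated, and in the ATO group (n = 2) exposure to ATO at 5000 ppb took place during development. The series is described as a study of offspring of mice exposed to arsenic; the labels do not spell out ATO, name the route or say whether the 2 libraries of a group came from different litters or animals. P-values therefore measure the spread between these samples, which may be technical.

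Microglia are the resident macrophages of the brain. Neurons present the chemokine fractalkine to the receptor Cx3cr1, purines released from cells are sensed by P2ry12, and survival depends on the kinase receptor Csf1r. Trem2 is a lipid-sensing receptor that signals through the adaptor Tyrobp, Tmem119 is a membrane protein used to tell microglia from other macrophages, and Aif1 encodes the calcium-binding protein Iba1. C1qa, C1qb and C1qc encode the chains of C1q, which starts the classical complement pathway and in the brain is made mainly by microglia; it is known for tagging synapses for removal.

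The C1q genes lie side by side on the minus strand of chromosome 4 (GRCm38), within 18675 bases from 136880129 to 136898803, in the order C1qb, C1qc, C1qa, with no other gene of the table between them. RefSeq promoters, from 250 bases before to 50 after the start site (GRCm38.p6), were held for 6 of the 9 members. They were searched on both strands for AGGAAGT, a core letter sequence bound by PU.1, the transcription factor that defines macrophages and is encoded by Spi1; the motif was chosen with the sequences in view. It was found in 3 of the 6 (P2ry12, C1qb and C1qc) and in 9.35% of 32851 promoters of the same length. Because of that choice, these shares cannot show whether the members hold the motif more often than other genes. Binding of PU.1 was not tested. The 3 matched promoters are printed because Spi1 was measured beside their genes in the same libraries. Capitals mark the match, which reads ACTTCCT where it lies on the opposite strand. The windows are chr4:136886151-136886450 for C1qb, chr4:136892865-136893164 for C1qc and chr3:59262936-59263235 for P2ry12, all on the minus strand.
C1qb: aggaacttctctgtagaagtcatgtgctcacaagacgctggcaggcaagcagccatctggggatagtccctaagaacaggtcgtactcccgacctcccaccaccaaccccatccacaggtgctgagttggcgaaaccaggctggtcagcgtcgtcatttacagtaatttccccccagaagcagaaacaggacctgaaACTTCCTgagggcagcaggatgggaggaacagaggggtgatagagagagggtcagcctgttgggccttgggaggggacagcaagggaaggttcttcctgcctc
C1qc: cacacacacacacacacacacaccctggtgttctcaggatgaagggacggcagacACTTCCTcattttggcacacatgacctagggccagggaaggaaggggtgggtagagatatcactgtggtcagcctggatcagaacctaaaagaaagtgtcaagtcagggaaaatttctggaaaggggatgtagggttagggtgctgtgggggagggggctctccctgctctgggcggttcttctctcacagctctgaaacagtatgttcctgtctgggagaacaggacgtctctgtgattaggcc
P2ry12: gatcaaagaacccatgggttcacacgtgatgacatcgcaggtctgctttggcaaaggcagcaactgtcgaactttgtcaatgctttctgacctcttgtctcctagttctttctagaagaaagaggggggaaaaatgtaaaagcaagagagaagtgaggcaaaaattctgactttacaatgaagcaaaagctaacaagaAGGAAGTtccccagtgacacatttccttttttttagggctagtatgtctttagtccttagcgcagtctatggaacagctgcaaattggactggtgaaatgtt
The match began 53 bases before the start site of C1qb, 195 before that of C1qc and 52 before that of P2ry12. The promoters of Cx3cr1, Trem2 and Aif1 did not hold these letters in this window.

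Counts summed to between 14832214 and 17251032 per library, so that 1 count corresponded to 0.0580 to 0.0674 CPM (counts scaled by library size). The 9 members together took 4477 and 4380 counts in the control libraries, against 4946 and 5344 in those of ATO. Tissue markers were present: all 10 listed genes of hippocampal neurons were measured, with a summed level of 4959 to 4997 normalised CPM in the controls and 4875 to 4941 in ATO. Microglial genes were represented as well, since all 25 other listed genes of homeostatic microglia were in the table.

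None of the 9 members passed the test between ATO and control. With edgeR (quasi-likelihood test, p-values adjusted by Benjamini-Hochberg over all genes) 0 members were called at an adjusted p under 0.05, against 3.73% of all genes (2.87% higher and 0.859% lower in ATO). DESeq2 called 0 of the 9 (2.01% of all genes) and limma-voom 0 (3.37%). One member, Tmem119, had an unadjusted p under 0.05 in edgeR, as did 18.1% of all genes. The log2 fold changes ran from -0.16 for Cx3cr1 to 0.26 for Tmem119, with a median of 0.04 beside -0.0050 over all genes; 6 were above 0 and 3 below. For 7 of the 9 the fitted fold between the groups was smaller than the larger of the folds between the 2 libraries within a group. The share of all genes for which this holds was not computed, so the count only describes the members. In bulk tissue fewer cells of a type and less RNA per cell cannot be told apart, so these values describe the microglial transcripts of the whole sample.

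The intervals show what size of difference these libraries leave possible. Across the members the 95% intervals of the fold ran from 0.757 to 1.58, and with the least counted genes Aif1 and Trem2 set aside from 0.757 to 1.42. A 2-fold change in either direction lay outside the interval of each of the 9 genes. The interval contained a fold of 1 for 8 of them and just missed it for Tmem119.

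**Figure D1:**
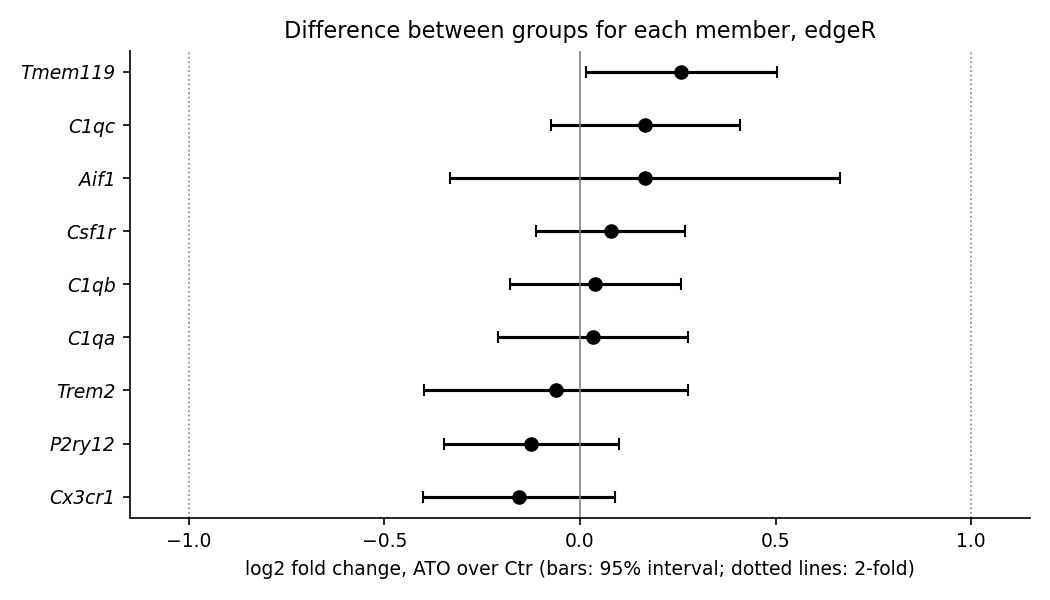
Log2 fold change of ATO over control for each member (points) with its 95% interval from edgeR (bars); the dotted lines mark a 2-fold difference. All 9 intervals lie inside the dotted lines, and only that of Tmem119, from 0.02 to 0.50, does not cross 0.

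Among the receptors, the fractalkine receptor gene Cx3cr1 (ENSMUSG00000052336, chromosome 9 from 119901616 to 120069879, minus strand) stood at 55.8 and 45.0 normalised CPM in the controls and at 41.2 and 49.2 in ATO. The controls lay further apart than the group means, and the groups overlapped. The log2 fold change was -0.16 ± 0.11 (SE), with an adjusted p of 0.519. Its ligand gene Cx3cl1, a neuronal transcript, averaged 504 ± 12.1 CPM in control (SD, n = 2 per group here and below) against 491 ± 33.6 in ATO (log2 -0.04 ± 0.08).

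P2ry12 (ENSMUSG00000036353, chromosome 3 from 59216272 to 59262871, minus strand) was at 36.6 and 31.9 CPM in the controls and 31.6 and 31.2 in ATO. Both ATO libraries lay below both controls, by a margin much smaller than the gap between the controls (log2 -0.12 ± 0.10, adjusted p = 0.587). The related purine receptor gene P2ry13 was at 11.04 ± 1.28 CPM in control and 8.67 ± 0.17 in ATO, a log2 fold change of -0.35 ± 0.17 that did not pass (adjusted p = 0.299). Exons of Med12l overlap those of P2ry12 on the opposite strand, as exons of Hmgxb3 do with Csf1r and those of Gm33858 with Cx3cr1. Whether counting used strand is not given in the sources used here.

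Csf1r (ENSMUSG00000024621, chromosome 18 from 61100598 to 61132149, plus strand) was at 73.7 and 70.8 CPM in the controls and 70.4 and 82.2 in ATO. The ATO libraries lay on either side of both controls (log2 0.08 ± 0.09, adjusted p = 0.707). The gene of its ligand Csf1 had a log2 fold change of 0.25 ± 0.12 (adjusted p = 0.296), from 24.0 ± 0.398 to 28.5 ± 4.53 CPM. That of the second ligand Il34, made mainly by neurons, was at 0.16 ± 0.09 (adjusted p = 0.397), from 41.4 ± 0.325 to 46.1 ± 1.67 CPM. For both ligands the 2 ATO libraries were above both controls, as 48.1% of all genes had ATO on one side.

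Trem2 (ENSMUSG00000023992, chromosome 17 from 48346401 to 48354147, plus strand) was at 10.8 and 11.9 CPM in the controls and 10.4 and 11.3 in ATO. The groups overlapped, with a log2 fold change of -0.06 ± 0.16 and an adjusted p of 0.883. Tyrobp, its signalling adaptor, was at 10.2 ± 1.03 CPM in control and 9.64 ± 0.324 in ATO (log2 -0.08 ± 0.17).

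Tmem119 (ENSMUSG00000054675, chromosome 5 from 113793729 to 113800516, minus strand) had the largest difference among the members. It was at 23.1 and 20.6 CPM in the controls and 25.7 and 26.6 in ATO, so both ATO libraries were above both controls. The fitted level was 19.7% higher in ATO (log2 0.26 ± 0.11), with an unadjusted p of 0.0386 and an adjusted p of 0.246 in edgeR. Aif1 (ENSMUSG00000024397, chromosome 17 from 35170991 to 35176068, minus strand) was the least counted member, with counts of 65 and 60 in control and of 85 and 75 in ATO. These were 4.41 and 3.97 CPM against 4.88 and 4.52, again with no overlap, at a log2 fold change of 0.17 ± 0.23 (adjusted p = 0.768). In all, 3 of the 9 members had ATO values that did not overlap the controls (Tmem119 and Aif1 higher, P2ry12 lower), a share below the 48.1% of all genes.

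None of the C1q chains passed either. C1qa (ENSMUSG00000036887, chromosome 4 from 136895917 to 136898803) was at 33.0 and 39.7 CPM in the controls and 34.5 and 39.9 in ATO, a log2 fold change of 0.03 ± 0.11 (adjusted p = 0.918). C1qb (ENSMUSG00000036905, chromosome 4 from 136880129 to 136886187) was at 37.2 and 35.8 CPM against 35.0 and 40.0 (0.04 ± 0.10, adjusted p = 0.884). The groups overlapped for both genes. C1qc (ENSMUSG00000036896, chromosome 4 from 136889804 to 136893065) was at 29.0 and 30.5 CPM in the controls and 30.2 and 36.7 in ATO (0.17 ± 0.11, adjusted p = 0.476). Its higher mean in ATO came with 1 library, ATO replicate 2, and without that library the log2 fold change was 0.02.

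The 3 chains are assembled in equal numbers in the C1q molecule. Of their summed normalised CPM, which is not scaled by length, C1qa took 33.3% and 37.4% in control and 34.6% and 34.2% in ATO. C1qc took 29.2% and 28.8% in control and 30.3% and 31.4% in ATO. The ratio of the summed C1q CPM to that of the other 6 members was 0.485 and 0.576 in control and 0.541 and 0.569 in ATO. Both ATO ratios fell between the control ratios, and the means of 0.530 ± 0.0637 and 0.555 ± 0.0193 (SD, n = 2 per group) differed by less than the spread between replicates. Summed over all 9 members the level was 304 and 290.0 CPM in the controls and 284 and 322 in ATO, so the ATO libraries were again the lowest and the highest of the 4.

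**Figure D2:**
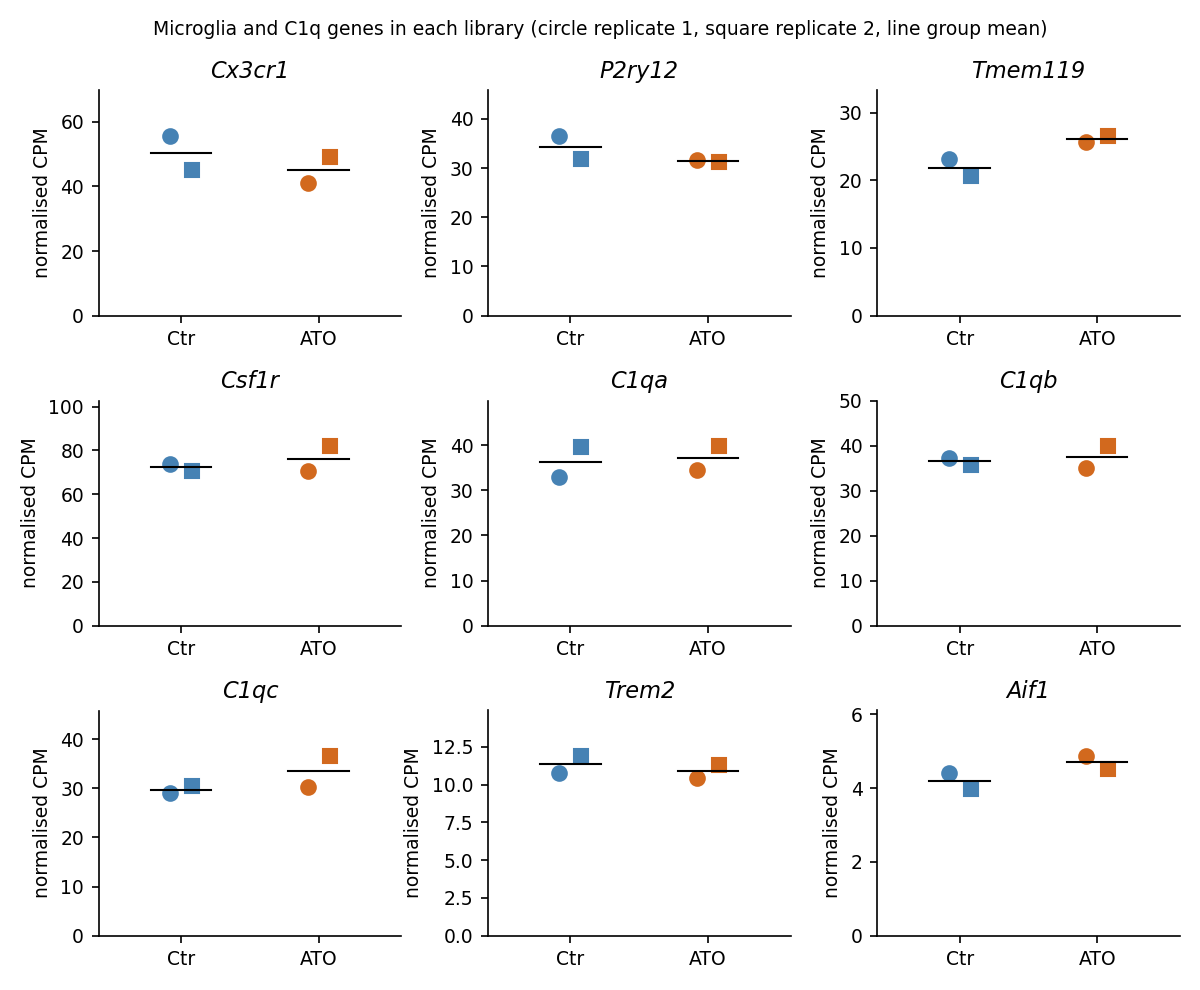
Normalised CPM of each member in the 4 libraries (circles replicate 1, squares replicate 2, blue control, orange ATO, black lines group means), each axis starting at 0. The ATO and control points overlap for 6 genes; for Tmem119 and Aif1 both ATO points lie above, and for P2ry12 below, both control points.

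Levels of different genes were compared per length. On the scale of the deposited FPKM (the authors' length- and depth-scaled value), C1qa led with 35.3 ± 3.36 (mean ± SD over all 4 libraries), followed by C1qb with 33.9 ± 1.85 and C1qc with 16.3 ± 1.74. P2ry12 and Csf1r came next with 12.9 ± 0.948 and 12.8 ± 0.891 FPKM, then Cx3cr1 with 10.6 ± 1.32 and Tmem119 with 10.3 ± 1.18. Aif1 (2.90 ± 0.255) and Trem2 (2.24 ± 0.127) were lowest. The neighbours C1qa and C1qb, P2ry12 and Csf1r, Csf1r and Cx3cr1, and Cx3cr1 and Tmem119 overlapped in their ranges over the libraries; the other neighbours did not.

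This order depends on the gene length used. The length implied by the deposited FPKM of Trem2 was 4957 bases, close to the 4946 bases covered by the exons of all its annotated transcripts, among them one with retained introns, whereas its principal transcript has 1088 bases. Per kilobase of principal transcript, Trem2 stood at 10.2 ± 0.591 normalised CPM, in the range of Tmem119 (10.7 ± 1.21) and Cx3cr1 (10.6 ± 1.39). On that scale C1qc went from 16.3 to 26.3 and Aif1 from 2.90 to 5.08, while C1qa (35.4) and C1qb (34.0) hardly moved. Reads were not assigned to transcripts, so the true level of the principal transcript can be lower than the value on this scale. The length cancels in every comparison between groups.

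**Figure D3:**
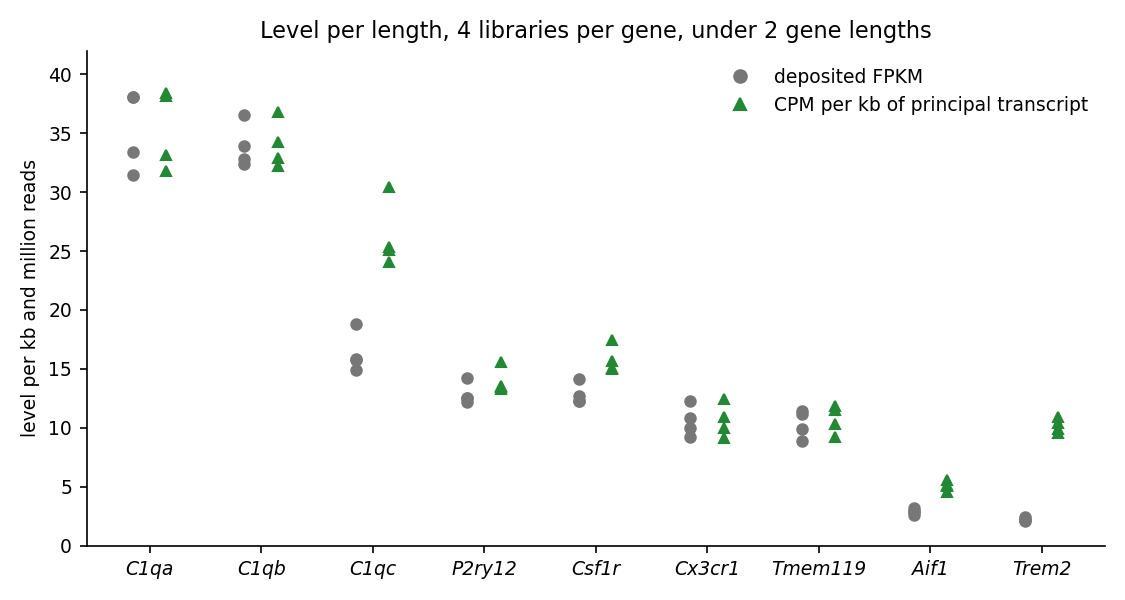
Level of each member in the 4 libraries as deposited FPKM (grey circles) and as normalised CPM per kilobase of the principal GENCODE transcript (green triangles). Trem2 moves from about 2.24 to 10.2 and C1qc from 16.3 to 26.3, while C1qa and C1qb stay in place.

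Among 25 other tested genes of homeostatic microglia, 0 were called in edgeR, 0 in DESeq2 and 0 in limma-voom (3.73%, 2.01% and 3.37% of all genes). In edgeR 2 had an unadjusted p under 0.05 (18.1% of all genes). Of the 25, 18 had a log2 fold change above 0. The values ran from -0.35 to 0.46, with a median of 0.10. Sall1, a transcription factor of microglial identity, was at 17.3 ± 3.52 CPM in control and 16.6 ± 1.51 in ATO. The smallest p-values belonged to Tgfbr1, a receptor of transforming growth factor beta (log2 0.29 ± 0.12, adjusted p = 0.224), and the tetraspanin gene Cd53 (0.44 ± 0.19, adjusted p = 0.253).

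Among ligands, partners and transcription factors of Csf1r and Trem2, 0 of 15 tested genes were called in edgeR, DESeq2 or limma-voom (3.73%, 2.01% and 3.37% of all genes). In edgeR 2 had an unadjusted p under 0.05 (18.1% of all genes). These were the ubiquitin ligase gene Cbl (log2 0.31 ± 0.09, adjusted p = 0.0851) and the kinase gene Syk (0.58 ± 0.22, adjusted p = 0.171). Spi1 was at 3.38 ± 0.369 CPM in control and 3.31 ± 0.512 in ATO, and Irf8, another transcription factor of macrophages, at 4.08 ± 0.404 and 4.65 ± 0.655. Their intervals were wide at these counts, from -0.61 to 0.55 (log2) for Spi1 and from -0.33 to 0.70 for Irf8.

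In the complement list 2 of 23 tested genes rose (2.87% of all genes did) and 0 fell, with a median log2 fold change of 0.14. An unadjusted p under 0.05 was reached by 10 of the 23 in edgeR, against 18.1% of all genes. Without ATO replicate 2, 5 of the list were called. Cd59a, which encodes an inhibitor of the membrane attack complex, went from 57 and 58 counts in the controls to 162 and 159 in ATO, or 3.85 ± 0.0181 to 9.44 ± 0.192 CPM (log2 1.29 ± 0.20, adjusted p = 0.00189). Cfp, the gene of properdin, which stabilises the alternative pathway convertase, rose from 12.2 ± 1.69 to 20.9 ± 0.0362 CPM (0.78 ± 0.14, adjusted p = 0.00597). Both calls held in DESeq2 and limma-voom and without each library in turn. Serping1, which encodes the inhibitor of the C1 proteases, had the next smallest p (0.79 ± 0.25, adjusted p = 0.0987), with 101 and 64 control counts against 198 and 128. Of the classical pathway, the protease genes C1ra (0.37 ± 0.34, adjusted p = 0.620) and C1s1 (0.27 ± 0.40, adjusted p = 0.785) did not pass. Neither did C4b (0.26 ± 0.11, adjusted p = 0.203), a later component of that pathway. C3, the central component, had 5 and 13 control counts against 22 and 28 in ATO (1.28 ± 0.49, adjusted p = 0.177), and its receptor gene C3ar1 had 21 and 14 against 38 and 17 (0.45 ± 0.44).

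Several relatives of C1q outside the complement system, which share its globular domain, are expressed by neurons. The list of relatives also holds C1qbp, whose protein lacks that domain. Of its 11 tested genes, 0 were called in edgeR, DESeq2 or limma-voom (3.73%, 2.01% and 3.37% of all genes). In edgeR 3 had an unadjusted p under 0.05 (18.1% of all genes). These were the synaptic organiser genes C1ql3 (log2 0.33 ± 0.09, adjusted p = 0.0585) and C1ql2 (0.27 ± 0.08, adjusted p = 0.0904) and, in the other direction, C1qtnf4 (-0.26 ± 0.08, adjusted p = 0.0925).

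Of 23 tested genes known to go up in activated microglia, 2 rose (2.87% of all genes did) and 0 fell, with a median log2 fold change of 0.19. A further 7 listed genes, Cst7, Itgax and Clec7a among them, were not found by symbol in the gene table and could not be tested. In edgeR 21 of the 23 had a log2 fold change above 0 and 8 an unadjusted p under 0.05, against 18.1% of all genes with such a p. Without ATO replicate 2, 5 of the list were called, and without control replicate 2, 0. The tetraspanin gene Cd9 rose from 36.4 ± 4.69 to 50.6 ± 0.502 CPM (0.48 ± 0.10, adjusted p = 0.0197) and the lysosomal protease gene Ctsd from 185 ± 0.208 to 234 ± 23.8 (0.34 ± 0.08, adjusted p = 0.0368). Neither is limited to microglia in brain. Cd63, a tetraspanin of late endosomes, did not pass (0.31 ± 0.09, adjusted p = 0.0691). Without control replicate 2 neither was called (adjusted p = 0.141 and 0.138), and Ctsd was also lost without control replicate 1 (0.0800) and without ATO replicate 2 (0.343). Among inflammatory cytokines, sensors and their signalling genes, 0 of 14 tested were called in edgeR, DESeq2 or limma-voom (3.73%, 2.01% and 3.37% of all genes). In edgeR 0 had an unadjusted p under 0.05 (18.1% of all genes). The smallest p-values there were those of Nfkb1 (0.18 ± 0.12), the inflammatory caspase gene Casp1 (0.50 ± 0.36) and Tgfb1 (0.27 ± 0.20), with adjusted p of 0.467, 0.510 and 0.522. The other 11 genes of that list, which include Il1b, Tnf and Il6, were not found by symbol in the gene table and could not be tested.

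Macrophages at the borders of the brain and other myeloid cells share several genes with microglia, and their listed markers were higher as counted. All 11 tested had a log2 fold change above 0, with a median of 0.99. In edgeR 2 rose (2.87% of all genes did) and 0 fell, and 8 had an unadjusted p under 0.05 (18.1% of all genes). For 9 of the 11 the ATO values lay above the controls without overlap, where 48.1% of all genes had ATO on one side. Some had few control counts, such as Lyve1 with 10 and 5, and may be in the gene table only through their ATO counts. The count above 0 and the median therefore describe these 11 genes and do not test the list. Without ATO replicate 2, 6 of the list were called, and 0 without ATO replicate 1 or without control replicate 2. The scavenger receptor gene Colec12 rose from 6.37 ± 0.393 to 11.3 ± 2.86 CPM (0.83 ± 0.20, adjusted p = 0.0385) and the class II histocompatibility gene H2-Aa from 19 and 10 counts to 96 and 33 (1.94 ± 0.48, adjusted p = 0.0396). The mannose receptor gene Mrc1, a defining marker, had 53 and 20 control counts against 100 and 62 in ATO (0.95 ± 0.37, adjusted p = 0.187), and Lyve1 had 10 and 5 against 44 and 20 (1.88 ± 0.52, adjusted p = 0.0588). The calls of H2-Aa and Colec12 did not hold under every alternative. Without ATO replicate 1 the log2 fold changes were 1.02 for H2-Aa and 0.54 for Colec12 (adjusted p = 0.459 and 0.385), without control replicate 1 the adjusted p-values were 0.0760 and 0.0883, without control replicate 2 0.265 and 0.195, and limma-voom gave 0.0820 and 0.0511. DESeq2 called H2-Aa (adjusted p = 0.0472) and not Colec12 (0.0889). The summed level of the 11 markers was 39.7 and 29.3 CPM in the controls and 70.9 and 45.5 in ATO, against 284 to 322 for the 9 microglia and C1q genes over all libraries. The other 9 listed genes, Ccr2, Pf4 and Ms4a7 among them, and all 10 lymphocyte genes were not found by symbol in the gene table.

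Among markers of tissue next to the hippocampus, all 20 of the choroid plexus rose (2.87% of all genes did). This list was chosen with earlier results of these data known, so its count is a description and not a test. Some of its genes, such as Slc4a5 (4 and 1 control counts) and Tmem72 (2 and 6), may be in the gene table only through their ATO counts. Others, such as Enpp2 (1277 and 1736), were well counted in the controls. The summed level of these 20 was 145 and 222 CPM in the controls and 3400.0 and 4262 in ATO. Their median log2 fold change was 4.35, also with Wfdc2, which had no control count, set at its bound, at least 27.6-fold higher if 3 counts are allowed for the controls together. Of 12 leptomeningeal markers 1 rose and 1 fell in edgeR (2.87% and 0.859% of all genes did). Of these markers 11 were above 0 and 8 had an unadjusted p under 0.05 in edgeR (18.1% of all genes). The median log2 fold change of the leptomeningeal markers was 0.69. Their summed level was 460 and 312 CPM in the controls and 706 and 383 in ATO, so the groups overlapped, and 6 of the 12 had ATO on one side of the controls (48.1% of all genes). In this list 0 genes were called without control replicate 2, 5 without control replicate 1 and 9 without ATO replicate 2. The part of these cells in the rises of Cd59a, Cfp, Cd9, Ctsd, Colec12 and H2-Aa was not tested. Lists of the main hippocampal cell types had medians near 0, at -0.01 for astrocytes, -0.08 for oligodendrocytes, -0.05 for endothelial cells and pericytes and -0.0045 for neurons. Of 10 tested genes each, 2 oligodendrocyte genes and 1 neuronal gene fell in edgeR (0.859% of all genes did), and 0 rose in either list. There 0 astrocyte and 0 endothelial or pericyte genes were called (3.73% of all genes). In edgeR 6 astrocyte, 2 oligodendrocyte, 3 neuronal and 3 endothelial or pericyte genes had an unadjusted p under 0.05 (18.1% of all genes). Of the oligodendrocyte genes 1 was above 0, and the lowest log2 fold change was -0.66. The oligodendrocyte and neuronal calls did not hold with each library left out in turn.

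**Figure D4:**
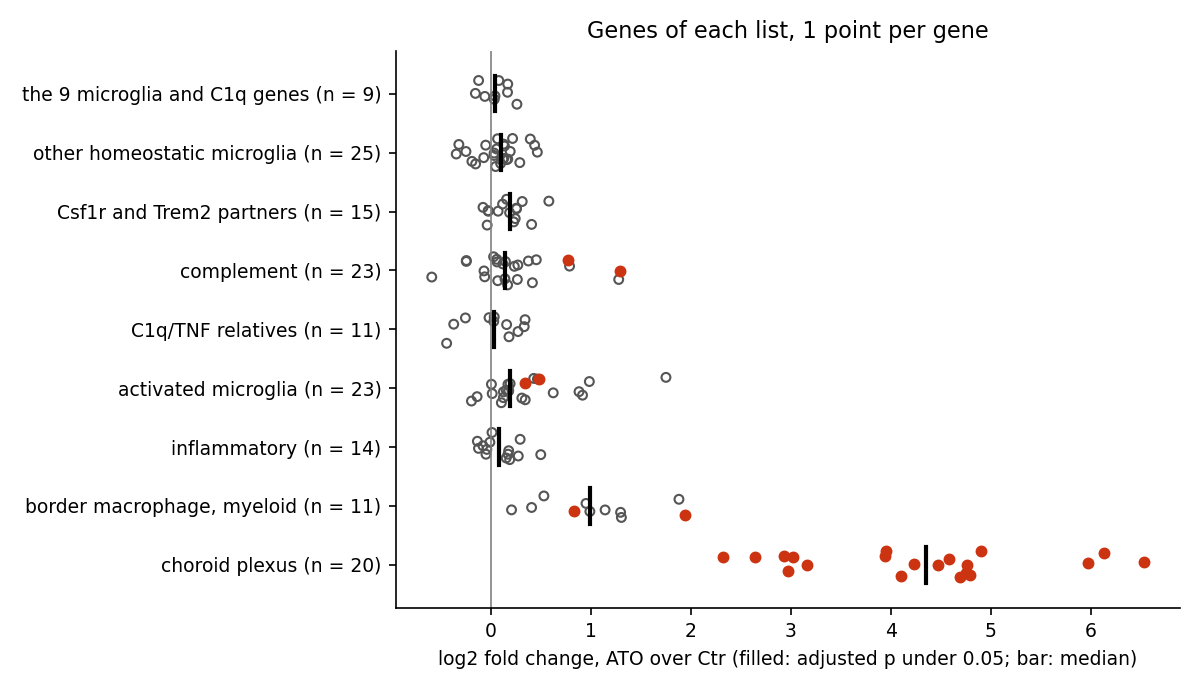
Log2 fold change of ATO over control for the tested genes of each list (1 point per gene, filled where the edgeR adjusted p is under 0.05, black bars medians; Wfdc2 of the choroid plexus list is drawn at its lower bound). The 9 microglia and C1q genes have a median of 0.04 and the 25 other microglia genes 1 of 0.10, with 18 of the 25 above 0. The border macrophage and myeloid genes have a median of 0.99, and the choroid plexus genes lie above 2.

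Over the 4 libraries the mean profile of the members was nearly flat, from -0.05 to 0.09 (log2, relative to each gene's own mean), lowest in control replicate 2 and ATO replicate 1 and highest in ATO replicate 2. The 5 genes closest to it among 12078 with a mean of at least 5 CPM were Arap3, Crls1, Praf2, Pde8b and Plxdc2, at root mean square distances of 0.0024 to 0.0075. A flat profile over 4 libraries is common: 46.5% of those genes lay as near to it as the median member (0.111).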

How the data were processed

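RNA from 4 hippocampus libraries, 2 per group, was sequenced by the submitters from messenger RNA with a TruSeq kit, per the labels' protocols. Per the submitters' processing notes the build was GRCm38 and the tools included HTSeq 0.6.1, HISAT2 2.0.1, cutadapt 1.9.1 and limma 3.47.15; how they were set is not given in the sources used here. Per the file headers the authors deposited, per gene, the count and the FPKM of each library, their log2 fold change of ATO over control and their p-value and adjusted p-value. By the mark in the authors' deposited table, 0 of the 9 members had changed (adjusted p from 0.252 to 0.909), and their log2 fold changes differed from the ones given here by at most 0.0058.

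The deposited counts went into edgeR 4.0.16 (R 4.3.3) over all 15713 genes (filterByExpr, 0 removed; TMM factors; quasi-likelihood test, no covariate). An adjusted p under 0.05 is a call; rose and fell are used of calls. Normalised CPM use TMM-scaled library sizes. The SE is the log2 fold change divided by the square root of F, and 95% intervals use the test's degrees of freedom. FPKM served only to order levels. Positions came from GENCODE M21 (GRCm38), which held 99.9% of the identifiers. On simulated counts for the 15713 genes edgeR recovered 61.2% of genes changed 1.5-fold and 79.1% of those changed 2-fold. There 10 of 169 calls were false. Few genes were changed in the simulation and its dispersions came from these libraries, so the rates may differ in the real data.

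The members and the gene lists were chosen with earlier results of these data known. Named genes are the members, their listed ligands and partners, and the called genes or those with the smallest p of each microglial, complement or myeloid list, with Sall1 and Mrc1 added after their values were seen. Lists of other cell types are given by counts and medians. Listed genes that were not found by symbol in the gene table could not be tested. These include 3 of the Csf1r and Trem2 list, 7 of the complement list and 5 of the C1q relatives. Alternatives were DESeq2 1.42.0, limma-voom (limma 3.58.1), library size only, no filter, a mean of at least 5 CPM, each library left out, and a replicate block.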

Additional observations from a re-analysis of the deposited data

How the results depend on the processing

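No member was called under any of the 10 alternatives; the lowest adjusted p was 0.154, with the replicate block. Of 89 member fold changes under alternatives 83 kept their sign, and the 6 that did not came from leaving out 1 library. The log2 fold change then ranged from -0.31 to 0.0091 for Cx3cr1, from -0.038 to 0.19 for Csf1r, from -0.091 to 0.17 for C1qa, from -0.060 to 0.13 for C1qb and from -0.13 to 0.0087 for Trem2; the cause was not tested. Leaving out a library leaves 1 group with a lone sample, taken to vary like the other group. Aif1 could not be tested with the minimum of 5 CPM. The median of the members stayed within 0.101, the spread between replicates, of its main value of 0.04 under each alternative run, but was -0.060 without ATO replicate 2 and 0.13 without ATO replicate 1.

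Over all genes 586 were called, 316 in DESeq2, 1366 with the replicate block and 222 to 611 when 1 library was left out (222 without control replicate 2). In the 7 microglial, complement and myeloid lists together 6 genes were called, 22 with the replicate block and 2 (without control replicate 2) to 18 (without ATO replicate 2) when 1 library was left out. Same-numbered libraries deviated from their group means with a correlation of 0.104 across genes. The labels do not say that the numbers pair the samples, so the block is only an alternative. Of the members Aif1, at 60 to 85 counts per library, was the least precise.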
